A study of Caenorhabditis elegans with 6 samples.

Results

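The vitellogenin genes vit-1 to vit-6 encode the yolk precursor proteins of C. elegans. They were taken by gene identifier from the deposited expression values, and 6 of the 46778 genes listed carried one of these names in the WBcel235 annotation. RNA sequencing measured expression in whole N2 (wild type) worms at the L4 larval stage, in 3 libraries labelled let-607 RNAi and 3 labelled control. The worms were grown at 20 °C from synchronized L1 larvae on HT115 bacteria that carried either the let-607 RNAi construct or the empty vector L4440. In the study, undiluted let-607 RNAi arrested development, and the let-607 RNAi bacteria were diluted with control bacteria. The labels do not say whether the libraries of a group came from separate cultures, so p-values measure only the spread between these libraries, which may be technical.

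Vitellogenins are large lipid-carrying glycoproteins related to apolipoprotein B. In C. elegans they are made in the intestine of the hermaphrodite, secreted into the body cavity and taken up by oocytes through the receptor RME-2, where they provision the embryo. Their transcription begins around the transition from the L4 larva to the adult and reaches its full level only in adults, so an L4 library holds the onset of vit expression. The product of vit-6 is cleaved into a pair of smaller yolk proteins, while the other genes give yolk proteins that are not cleaved in this way. In a sample of whole worms, fewer cells of a type and less RNA per cell cannot be told apart.

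The target of the RNAi checks the labels. let-607 (WBGene00002783), which encodes a CREBH-like bZIP factor, had 71.0, 76.2 and 77.9 FPKM in libraries labelled let-607 RNAi, against 69.1, 57.1 and 57.3 FPKM in the control libraries. FPKM is the number of fragments scaled to the length of the transcript and to the fragments of the library, and so can be compared between genes of different length. The let-607 FPKM was therefore not lower in libraries labelled let-607 RNAi, with a log2 fold change of 0.30 (SE 0.08, adjusted p = 0.034 from limma). These values cannot tell reads of the worm's own let-607 mRNA from any reads of RNA made by the feeding construct, so they do not measure the knockdown, and the groups are called by their labels throughout. Deposited values summed to between 1400487 and 1485099 FPKM per library. The number of fragments is not stated, but the spacing of the lowest values corresponded to roughly 20400000 to 22700000 fragments per library. The median log2 fold change over the 15453 genes tested was 0.12, and 0.0051 after median-of-ratios scaling between libraries, so a gene at the middle of all genes appears slightly higher in libraries labelled let-607 RNAi. Within both groups, library 1 stood apart from libraries 2 and 3 for most vit genes, so values without it are given beside the results that rest on it.

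All 6 vit genes reached the minimum mean level of 0.5 FPKM and were tested. vit-3 and vit-4, which lie next to each other on chromosome X, fell in libraries labelled let-607 RNAi to 0.354 times the control mean for vit-3 and 0.341 times for vit-4. vit-2 and vit-5 had higher means there without passing the test, and vit-1 and vit-6 had means within the spread of the control libraries. To pass, a gene needed an adjusted p below 0.1 together with a log2 fold change beyond 1 in either direction. In all, 2 of 6 vit genes passed as lower, where 1.4% of all genes tested did, and 0 of 6 passed as higher, where 3.75% of all genes did. At any fold, 2 of 6 had an adjusted p under 0.1 from limma as lower and 0 as higher, where 11.4% and 31.7% of all genes tested did. These were vit-3 and vit-4, also the only 2 of the 6 with an unadjusted p under 0.05 from limma. The share of all genes under that unadjusted threshold was not computed. The median log2 fold change was -0.20 over the 6 vit genes and 0.12 over all genes tested. The plot of vit levels by library shows these values.

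**Figure D1:**
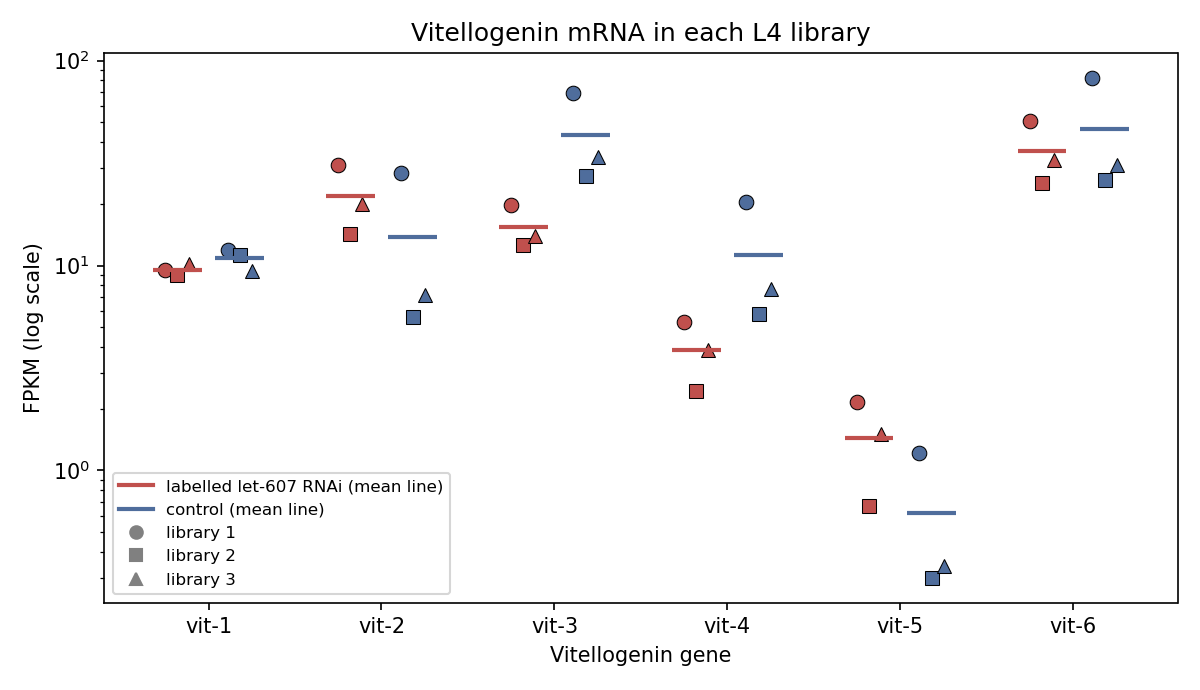
FPKM of each vitellogenin gene on a log axis, with 1 point per library (circle, square and triangle for libraries 1, 2 and 3) and a line at the group mean, libraries labelled let-607 RNAi in red and control libraries in blue. The 3 red points of vit-3 and of vit-4 sit below all 3 blue points, and library 1 is the highest of its group for vit-2 to vit-6 in both groups.

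vit-3 (WBGene00006927, chromosome X, 3567355 to 3572549, minus strand) has 6 exons and encodes a protein of 1603 residues. Its level was 19.7, 12.6 and 14.0 FPKM in libraries labelled let-607 RNAi, against 69.5, 27.3 and 33.8 FPKM in the control libraries. Every library labelled let-607 RNAi lay below every control library, although control library 1 stood well above the other two control libraries. The mean was 15.4 ± 3.79 FPKM in libraries labelled let-607 RNAi and 43.5 ± 22.7 FPKM in the control libraries (SD, n = 3 each). vit-3 fell by 1.4 on the log2 scale (SE 0.35, adjusted p = 0.0229 from limma). Without control library 1 its log2 fold change was -1.002 (SE 0.21, adjusted p = 0.0225 from limma), just past the fold threshold.

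vit-4 (WBGene00006928, chromosome X, 3558769 to 3563965, minus strand) also has 6 exons and a protein of 1603 residues. The 2 genes are separated by 3389 bases and read in the same direction. vit-4 had 5.28, 2.44 and 3.87 FPKM in libraries labelled let-607 RNAi, against 20.4, 5.83 and 7.68 FPKM in the control libraries. As for vit-3, the groups did not overlap, and the same control library stood above the rest. The mean was 3.86 ± 1.42 FPKM in libraries labelled let-607 RNAi and 11.3 ± 7.96 FPKM in the control libraries (SD, n = 3 each). vit-4 fell by 1.38 on the log2 scale (SE 0.49, adjusted p = 0.0725 from limma). This call was less stable than that of vit-3: without control library 1 the log2 fold change was -0.84 (adjusted p = 0.12 from limma), and without control library 3 or either of let-607 RNAi libraries 2 and 3 the adjusted p from limma lay between 0.135 and 0.22.

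vit-2 (WBGene00006926, chromosome X, 5101042 to 5106169, plus strand) has 5 exons and encodes 1613 residues. Its level was 31.0, 14.3 and 20.0 FPKM in libraries labelled let-607 RNAi, against 28.4, 5.60 and 7.16 FPKM in the control libraries. Control library 1 lay above let-607 RNAi libraries 2 and 3, so the groups overlapped. The log2 fold change of vit-2 was 0.98 (SE 0.61, adjusted p = 0.268 from limma), which did not pass. With control library 1 left out, it was 1.69 (SE 0.34, adjusted p = 0.0179 from limma) and passed as higher. With library 1 of both groups left out it was 1.4 (adjusted p = 0.0273 from limma). Leaving out the pair was an alternative added after the values had been seen.

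vit-5 (WBGene00006929, chromosome X, 3403471 to 3408603, plus strand, 6 exons, 1603 residues) was the lowest of the family in every library. It had 2.16, 0.67 and 1.5 FPKM in libraries labelled let-607 RNAi, against 1.21, 0.30 and 0.34 FPKM in the control libraries. These levels rest on few fragments, roughly 68 to 225 per library labelled let-607 RNAi and 31 to 121 per control library. Again only control library 1 reached into the range of the other group. The log2 fold change was 1.20 (SE 0.60, adjusted p = 0.174 from limma) with all libraries, and 1.75 (SE 0.50, adjusted p = 0.0523 from limma) without control library 1, where it passed as higher. With library 1 of both groups left out it was 1.404 (adjusted p = 0.104 from limma) and did not pass. Nor did vit-5 pass with any other single library left out (adjusted p from 0.115 to 0.391 from limma).

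vit-6 (WBGene00006930) lies alone on chromosome IV, from 8261157 to 8266459 on the plus strand, and its protein of 1651 residues is the longest of the family. It had 50.8, 25.3 and 32.7 FPKM in libraries labelled let-607 RNAi, against 82.3, 26.1 and 30.8 FPKM in the control libraries. Within each group library 1 was high and the other two were close to their counterparts in the other group. The log2 fold change was -0.22 (SE 0.46, adjusted p = 0.747 from limma), and its sign turned to 0.29 without control library 1.

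vit-1 (WBGene00006925, chromosome X, 7727889 to 7733168, plus strand, 5 exons, 1616 residues) was the steadiest member. It had 9.47, 8.99 and 10.2 FPKM in libraries labelled let-607 RNAi, against 11.9, 11.3 and 9.38 FPKM in the control libraries. The groups overlapped through control library 3, and no library stood apart. The mean was 9.54 ± 0.588 FPKM in libraries labelled let-607 RNAi and 10.8 ± 1.31 FPKM in the control libraries (SD, n = 3 each). Its log2 fold change was -0.18 (SE 0.11, adjusted p = 0.241 from limma).

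The groups were fully apart for 2 of the 6 vit genes, a share below that of all genes tested, of which 49.1% were apart. This level of background means that separation of the groups alone marks out no vit gene. Similar genes of a family can share reads, and how reads that match more than 1 vit gene were assigned is not given in the sources used here. Values of vit-3, vit-4 and vit-5, whose proteins have the same length, are uncertain to that extent. Sequence identity between the vit genes was not computed, so the same limit may hold for the other members and for ratios between members.

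The level order of the family differed between the groups. In all 3 libraries labelled let-607 RNAi the order in FPKM was vit-6, vit-2, vit-3, vit-1, vit-4 and vit-5, from high to low. In control libraries 2 and 3 it was vit-3, vit-6, vit-1, vit-4, vit-2 and vit-5, so that vit-3 led and vit-2 came next to last. Control library 1 had vit-6, vit-3, vit-2, vit-4, vit-1 and vit-5. Among the libraries labelled let-607 RNAi, the ranges of vit-6 and vit-2 overlapped, as did those of vit-2 and vit-3, while each further step down the order was free of overlap. Among the control libraries, every pair of neighbours in the order of the means (vit-6, vit-3, vit-2, vit-4, vit-1, vit-5) overlapped except vit-1 and vit-5. Set against all genes tested, vit-6 was moderately high at this stage, with 76.2% of genes having a lower mean, while vit-5 exceeded only 6.71% of them.

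The summed level of the 6 genes did not separate the groups. It was 118, 64.2 and 82.2 FPKM in libraries labelled let-607 RNAi, against 214, 76.4 and 89.2 FPKM in the control libraries. Control library 1 was by far the highest and the other 5 libraries overlapped. The mean was 88.3 ± 27.6 FPKM in libraries labelled let-607 RNAi and 126 ± 75.9 FPKM in the control libraries (SD, n = 3 each), a ratio of 0.698 (two-sided exact permutation test, p = 0.6). With 3 libraries against 3 the smallest p this test allows is 0.1. Without control library 1 the ratio was 1.07, so its direction rested on that library. In every library the 6 genes took under 0.015% of all FPKM, from 0.00451% to 0.00828% in libraries labelled let-607 RNAi and from 0.00521% to 0.0147% in the control libraries.

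The make-up of the vit mRNA is given as a description, since vit-3 and vit-4 were summed after both had been seen to be lower. Together they made 21.1%, 23.4% and 21.7% of the summed vit FPKM in libraries labelled let-607 RNAi, against 42.1%, 43.4% and 46.5% in the control libraries. Their share was thus lower in each library labelled let-607 RNAi, and control library 1, high in level, was close to the other two control libraries in this share. The mean share was 22.1 ± 1.17% in libraries labelled let-607 RNAi and 44.0 ± 2.30% in the control libraries (SD, n = 3 each), a ratio of 0.501.

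**Figure D2:**
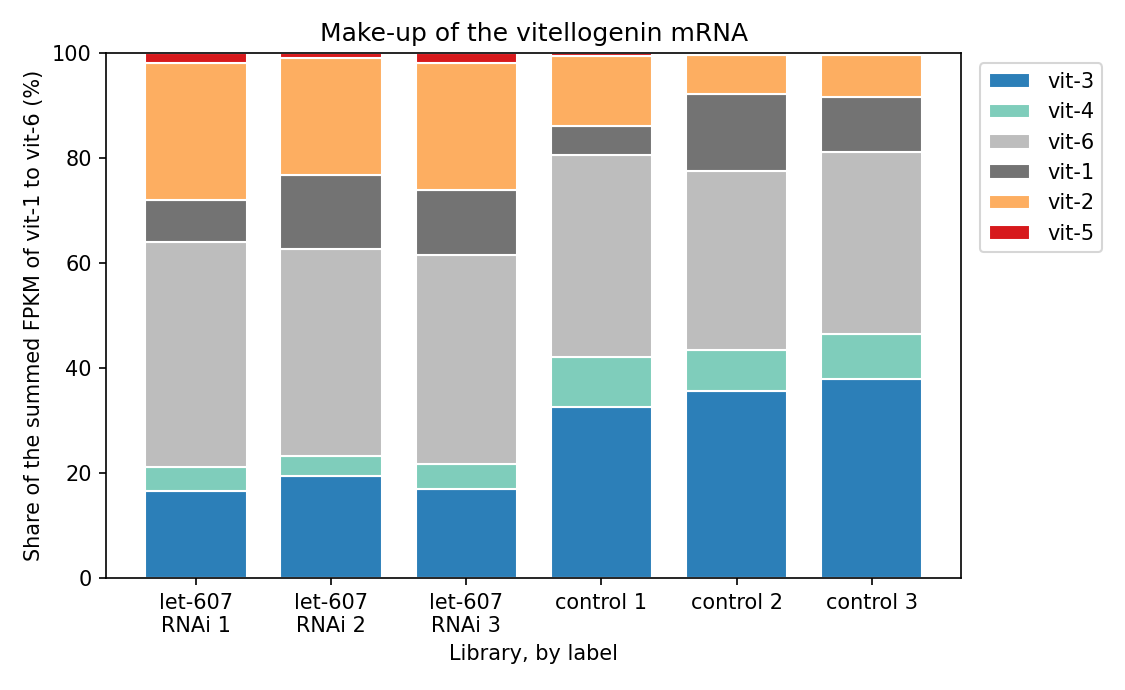
Stacked bars of the share (%) of the summed FPKM of vit-1 to vit-6 that each gene took, with 1 bar per library, the 3 labelled let-607 RNAi on the left and the 3 control libraries on the right. The vit-3 and vit-4 segments together take 21.1% to 23.4% of the left bars and 42.1% to 46.5% of the right bars, and the vit-2 segment takes 22.2% to 26.2% of the left bars and 7.33% to 13.3% of the right bars.

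The vit-2 share differed in the other direction. It was 26.2%, 22.2% and 24.3% in libraries labelled let-607 RNAi, against 13.3%, 7.33% and 8.03% in the control libraries, with no overlap. vit-5 made 1.82%, 1.04% and 1.83% of the sum in libraries labelled let-607 RNAi, against 0.566%, 0.393% and 0.381% in the control libraries. vit-6 took the largest share of any member in libraries labelled let-607 RNAi, 39.4% to 42.9%, and took 34.1% to 38.5% in the control libraries. The vit-1 share overlapped, with 8.0% to 14.0% in libraries labelled let-607 RNAi and 5.56% to 14.8% in the control libraries. Shares of 1 sum are tied to each other, so these values are not independent.

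Ratios between members within a library do not depend on the scaling of the libraries or on a level shared by the whole family. vit-2 over vit-3 was 1.57, 1.14 and 1.43 in libraries labelled let-607 RNAi, against 0.409, 0.205 and 0.212 in the control libraries. vit-2 was thus above vit-3 in every library labelled let-607 RNAi and below it in every control library. The ratio was 5.24-fold higher in libraries labelled let-607 RNAi, a difference of 2.39 on the log2 scale (two-sided exact permutation test, p = 0.1). vit-2 over vit-4 gave 5.88, 5.84 and 5.16 in libraries labelled let-607 RNAi, against 1.39, 0.961 and 0.932 in the control libraries, a 5.22-fold difference. The spread of this ratio within a group was small beside the distance between the groups.

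**Figure D3:**
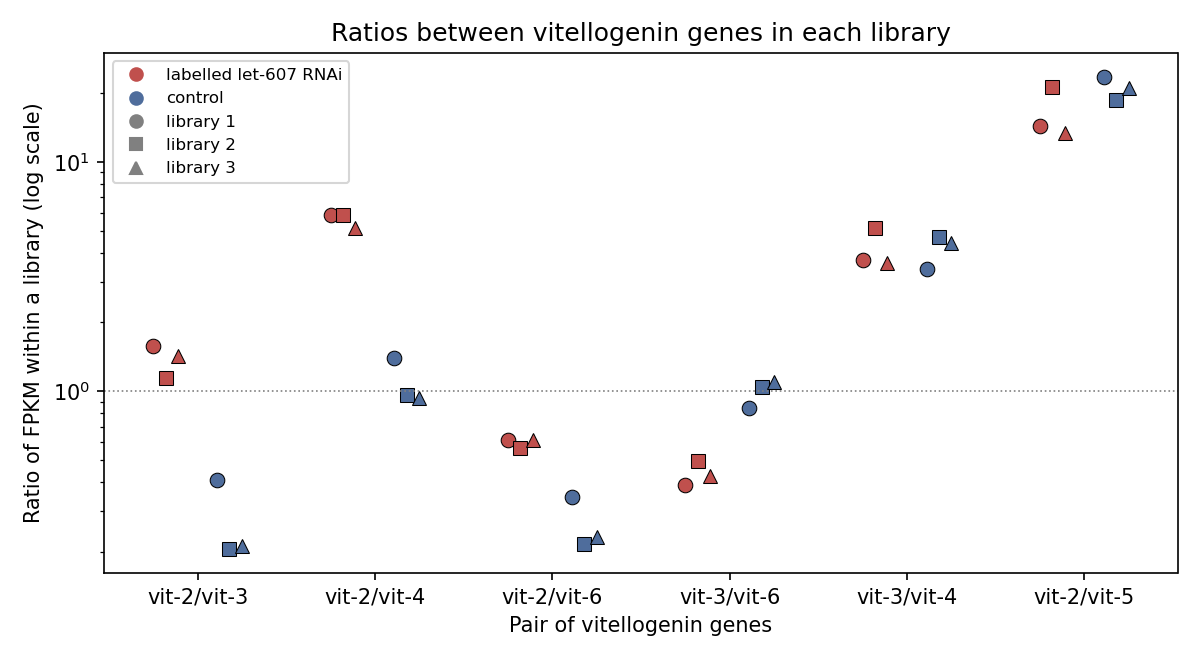
Ratio of the FPKM of a pair of vitellogenin genes within each library on a log axis, with red points for libraries labelled let-607 RNAi, blue points for control libraries, and circle, square and triangle for libraries 1, 2 and 3. The ratios of vit-2 to vit-3 and to vit-4 are apart by 5.24-fold and 5.22-fold, while vit-3 over vit-4 and vit-2 over vit-5 overlap between the groups.

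The ratio vit-3 over vit-4, by contrast, was 3.73, 5.14 and 3.61 in libraries labelled let-607 RNAi, against 3.40, 4.68 and 4.41 in the control libraries. It overlapped fully between the groups, and the fold between them was 0.996. vit-2 over vit-5 also overlapped, with 14.4, 21.3 and 13.3 in libraries labelled let-607 RNAi, against 23.5, 18.7 and 21.1 in the control libraries (two-sided exact permutation test, p = 0.3). Among the 5 members other than vit-1, vit-3 with vit-4 and vit-2 with vit-5 were the only pairs whose ratios overlapped between the groups. vit-6 lay between them, since vit-2 over vit-6 was 2.30-fold higher and vit-3 over vit-6 had a fold of 0.439. The widest difference was that of vit-3 over vit-5, with 9.13, 18.7 and 9.32 in libraries labelled let-607 RNAi, against 57.4, 91.0 and 99.5 in the control libraries. Of the 15 pairs compared, 9 had ratios apart between the groups. None passes a correction, since the smallest p of this design is 0.1 and the smallest value adjusted over the 15 pairs was 0.167. The 15 ratios come from only 6 genes, so they are not separate results. How often ratios of other gene pairs were apart was not computed, and 49.1% of single genes tested were apart.

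The libraries numbered 1 stood out within both groups. Relative to the mean of libraries 2 and 3, library 1 labelled let-607 RNAi was 1.81-fold for vit-2, 1.49-fold for vit-3, 1.67-fold for vit-4, 1.99-fold for vit-5 and 1.75-fold for vit-6. Control library 1 was 4.46-fold for vit-2, 2.27-fold for vit-3, 3.03-fold for vit-4, 3.78-fold for vit-5 and 2.89-fold for vit-6. vit-1 did not take part, at 0.989-fold in library 1 labelled let-607 RNAi and 1.15-fold in control library 1. The higher level of library 1 thus covered 5 of the 6 genes and was wider among the controls for each of them. The part of this difference between libraries in the fold changes of the vit genes was measured only by leaving libraries out, as the plot of fold changes shows.

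**Figure D4:**
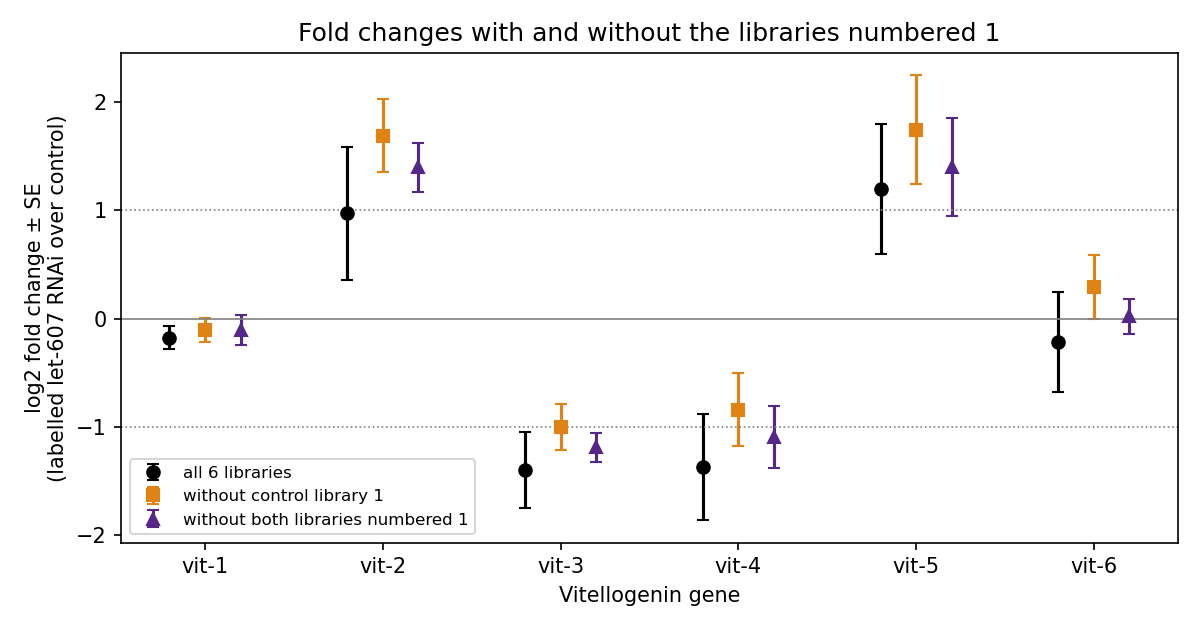
log2 fold change ± SE from limma (libraries labelled let-607 RNAi over control) of each vitellogenin gene, with all 6 libraries (black circles), without control library 1 (orange squares) and without both libraries numbered 1 (purple triangles), and dotted lines at the fold threshold. vit-3 stays below the lower line, at -1.4, -1.002 and -1.19, while vit-2 goes to 1.69 and 1.4 and vit-6 to 0.29 and 0.02.

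Since vit expression starts near the end of the L4 stage, genes with the same course over the 6 libraries were listed. Among the 11255 genes whose mean reached 5 FPKM, the most alike to the mean vit profile was col-19, a cuticle collagen known for its adult-specific expression (Pearson r = 0.978 over 6 libraries). col-19 had 42.2, 21.2 and 32.3 FPKM in libraries labelled let-607 RNAi, against 78.8, 17.6 and 28.7 FPKM in the control libraries. As for the vit genes, library 1 of each group was highest, at 1.58-fold of the mean of libraries 2 and 3 among those labelled let-607 RNAi and 3.41-fold among the controls. Its log2 fold change was -0.15 (SE 0.54, adjusted p = 0.853 from limma). The next were col-150 (r = 0.972), M163.1 (r = 0.969), the collagen gene col-178 (r = 0.969) and the cadherin gene cdh-8 (r = 0.967). col-178 had 81.8, 47.0 and 57.2 FPKM in libraries labelled let-607 RNAi, against 164, 42.7 and 64.5 FPKM in the control libraries. The genes were picked for this likeness, so the r values are a description over 6 libraries that share depth and handling. Other adult cuticle collagens did not all share this course. For bli-1 and bli-2, library 1 was the lowest of its group in both groups. Relative to the mean of libraries 2 and 3 it was 0.85-fold and 0.88-fold among those labelled let-607 RNAi. Among the controls it was 0.85-fold and 0.80-fold. col-7 had 1.36, 0.32 and 0.46 FPKM in libraries labelled let-607 RNAi, against 0.70, 0.23 and 0.79 FPKM in the control libraries. The part of worm age in the vit values was not tested.

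Among the vit genes themselves, vit-6 was closest to the mean profile of the family (r = 0.996 over 6 libraries) and vit-1 farthest from it (r = 0.521). That mean profile includes the gene compared, so each of these r values is in part a comparison of a gene with itself. vit-3 and vit-4 had r = 0.979 with each other, and vit-2 and vit-5 had r = 0.957, while vit-2 and vit-3 had r = 0.018. These are descriptions too, and among members other than vit-1 the first 2 pairs are those whose ratios overlapped between the groups. The r values and the ratios come from the same values of the same 6 libraries, so they are not separate results.

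Of 19 genes known to act on vit expression, 1 passed as higher and 0 as lower, where 3.75% and 1.4% of all genes tested did. At any fold, 6 of 19 had an adjusted p under 0.1 as higher and 2 of 19 as lower, where 31.7% and 11.4% of all genes tested did, so the list was close to that background. After median-of-ratios scaling the counts were 4 and 3, where 18.9% of all genes were higher and 19.3% lower at this threshold. The gene that passed was pqm-1, a zinc finger factor known for nuclear localization opposite to that of DAF-16. pqm-1 had 53.1, 55.8 and 50.9 FPKM in libraries labelled let-607 RNAi, against 19.2, 15.3 and 15.02 FPKM in the control libraries. The groups were far apart beside their spread, and pqm-1 rose by 1.69 on the log2 scale (SE 0.10, adjusted p = 8.36e-05 from limma). daf-16, the FOXO factor of the insulin pathway, had a log2 fold change of 0.06 (adjusted p = 0.599 from limma).

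Among the factors that drive vit transcription in the intestine, unc-62, a homeodomain gene that activates vit genes in the adult intestine, had 39.3, 35.8 and 41.7 FPKM in libraries labelled let-607 RNAi, against 46.9, 44.0 and 48.5 FPKM in the control libraries. Its log2 fold change was -0.26 (SE 0.07, adjusted p = 0.031 from limma), short of the fold threshold. ceh-60, a PBX-type partner of unc-62, had a log2 fold change of 0.02 (adjusted p = 0.862 from limma). The GATA factor gene elt-2, a main regulator of intestinal genes, had 0.14 on that scale (adjusted p = 0.219 from limma). Its relative elt-7, named after its values were seen, had 14.0, 14.6 and 12.7 FPKM in libraries labelled let-607 RNAi, against 22.7, 18.1 and 18.5 FPKM in the control libraries, a log2 fold change of -0.51 (adjusted p = 0.0103 from limma). elt-7 and unc-62 were lower without overlap, and neither passed. They were the only 2 of the 19 regulators apart as lower, while 7 of 19 were apart as higher. Of all genes tested, 49.1% were apart in either direction. Those apart as higher included sma-3 (log2 fold change 0.54), daf-2 (0.49) and rict-1 (0.39), named after their values were seen. lin-29, which drives the switch to adult programs in the epidermis, had a log2 fold change of 0.15 (adjusted p = 0.18 from limma). mab-3, which represses vit genes in males, had 0.35 on that scale (adjusted p = 0.19 from limma).

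**Figure D5:**
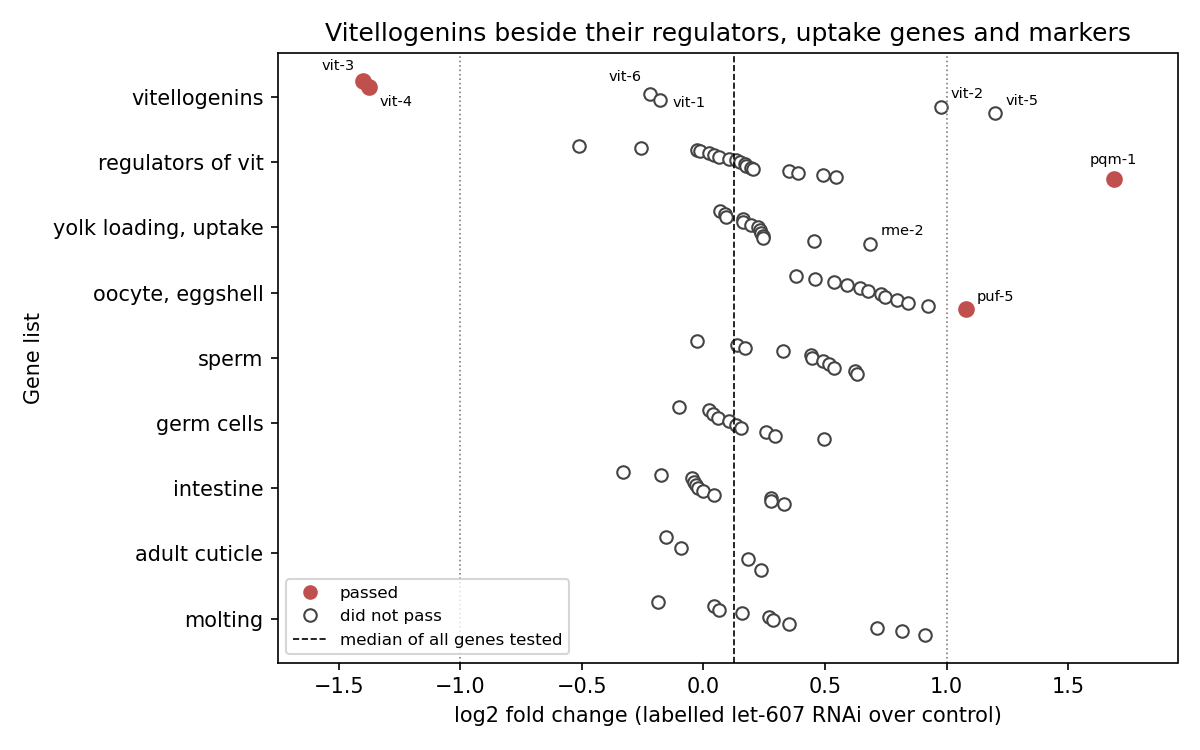
log2 fold change (libraries labelled let-607 RNAi over control) of each gene in the vit list and in lists of related genes and markers, with filled points for genes that passed and open points for those that did not, a dashed line at the median of all genes tested (0.12) and dotted lines at the fold threshold. Only vit-3 and vit-4 lie left of the lower line, pqm-1 and puf-5 are the filled points on the right, and all 12 oocyte and eggshell genes lie right of the dashed line.

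Of 13 genes for loading and uptake of yolk, 0 passed in either direction. At any fold, 9 of 13 had an adjusted p under 0.1 from limma as higher and 0 as lower, where 31.7% and 11.4% of all genes tested did. After median-of-ratios scaling, 4 of 13 did as higher and 0 as lower, where 18.9% and 19.3% of all genes did, and 3 of the 13 log2 fold changes were negative. The list's median log2 fold change was 0.22, against 0.12 over all genes tested, and 0.10 after that scaling, against 0.0051. rme-2, the oocyte yolk receptor of the LDL receptor family, had 27.2, 28.5 and 29.7 FPKM in libraries labelled let-607 RNAi, against 20.0, 16.1 and 17.2 FPKM in the control libraries. All libraries labelled let-607 RNAi were above all control libraries, with a log2 fold change of 0.69 (SE 0.09, adjusted p = 0.00179 from limma) that did not reach the fold threshold. dsc-4, the large subunit of the microsomal triglyceride transfer protein that loads lipid onto apolipoprotein B-like proteins, had 76.1, 77.9 and 73.3 FPKM in libraries labelled let-607 RNAi, against 58.7, 54.7 and 52.7 FPKM in the control libraries. Its log2 fold change was 0.45 (SE 0.05, adjusted p = 0.00122 from limma).

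Markers of tissue and stage moved beside the vit genes as follows. The 11 markers of the intestine, where vit genes are transcribed, were above 0 in every library and summed to 7193 to 7732 FPKM in libraries labelled let-607 RNAi and 6514 to 6733 FPKM in the control libraries. Their median log2 fold change was -0.02, with 3 of 11 having an adjusted p under 0.1 from limma as higher and 2 of 11 as lower, near the 31.7% and 11.4% of all genes tested. These counts became 3 and 6 after median-of-ratios scaling, where 18.9% and 19.3% of all genes did. The sums differed through the aspartic protease gene asp-1, and the other 10 markers summed to 2853 to 3019 FPKM in libraries labelled let-607 RNAi and 2896 to 2999 FPKM in the control libraries. All 12 oocyte and eggshell markers had an adjusted p under 0.1 from limma as higher, where 31.7% of all genes did, and also after median-of-ratios scaling, where 18.9% of all genes did, with a median log2 fold change of 0.70 and sums of 503.6 to 533 FPKM in libraries labelled let-607 RNAi and 279 to 353 FPKM in the control libraries. Of these, puf-5, an RNA-binding protein gene of oocytes, passed as higher with 21.7, 25.5 and 22.1 FPKM in libraries labelled let-607 RNAi, against 11.3, 9.43 and 12.0 FPKM in the control libraries. Its log2 fold change was 1.08, and it missed the fold threshold after median-of-ratios scaling (0.96) and without control library 2 (0.98). Of 11 sperm markers, 9 had an adjusted p under 0.1 from limma as higher and 0 as lower, where 31.7% and 11.4% of all genes did, with a median log2 fold change of 0.45. After median-of-ratios scaling these counts were 7 and 1, where 18.9% and 19.3% of all genes did.

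The 4 adult cuticle collagens had a median log2 fold change of 0.04 and none passed. They summed to 1017 to 1179 FPKM in libraries labelled let-607 RNAi and 1023 to 1297 FPKM in the control libraries. Most of these sums came from bli-2, with 773 to 886 FPKM in libraries labelled let-607 RNAi and 774 to 1065 FPKM in the control libraries. Of 10 molting genes, 4 had an adjusted p under 0.1 from limma as higher, near the 31.7% of all genes that did, and none passed. After median-of-ratios scaling 3 did as higher and 1 as lower, where 18.9% and 19.3% of all genes did. Their median log2 fold change was 0.28. Lists of germ cell, neuron, muscle and hypodermis genes held no gene that passed, with medians from 0.12 to 0.20. No member of any list was at 0 in any library. The part of germline, stage or tissue differences in the vit values was not tested.

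The genes beside the vit loci were looked at for shared changes. The change of vit-3 and vit-4 did not extend past the pair at the same size: ckc-1, on the far side of vit-3, had a log2 fold change of -0.34 (adjusted p = 0.0204 from limma), and rgs-7, on the far side of vit-4, had -0.22 (adjusted p = 0.0534 from limma), and neither passed. Beside vit-1, set-12, a gene named for a SET domain whose end lies 165 bases from vit-1, had 3.53, 2.39 and 2.67 FPKM in libraries labelled let-607 RNAi, against 1.08, 1.36 and 0.92 FPKM in the control libraries. set-12 rose by 1.28 on the log2 scale (SE 0.22, adjusted p = 0.00582 from limma), whereas vit-1 did not pass, and spp-14 on the other side of vit-1 had a log2 fold change of 0.01. None of the other tested neighbours passed. Beside vit-2 the log2 fold change was 0.16 for acn-1 and 0.54 for C42D8.1, and beside vit-6 it was -0.03 for K07H8.7 and 0.33 for K07H8.5. Beside vit-5 it was 0.29 for cht-1, and unc-78, whose gene ends 70 bases away, had 47.8 to 51.4 FPKM in libraries labelled let-607 RNAi and 48.0 to 50.7 FPKM in the control libraries.

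Genes on the opposite strand overlap 3 of the vit genes. C42D8.9 overlaps vit-2 and was low, at 0.38 to 0.89 FPKM in libraries labelled let-607 RNAi and 0.40 to 0.56 FPKM in the control libraries. The noncoding gene F59D8.3, which overlaps vit-4, had 1.66, 0 and 0 FPKM in libraries labelled let-607 RNAi, against 5.01, 0 and 6.80 FPKM in the control libraries. T27A10.8, which overlaps vit-3, was listed at 0 in all libraries except for 15.8 FPKM in library 2 labelled let-607 RNAi. The library kit keeps strand, but whether counting used it is not given in the sources used here, so reads of vit-2, vit-3 and vit-4 and of these partners may not be fully separated.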

How the data were processed

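RNA of whole L4 worms was sequenced in 3 libraries labelled let-607 RNAi and 3 labelled control, grouped by title. The authors deposited FPKM per gene and library. The paper's methods name TopHat and Cufflinks, while the submitters' processing notes name fastp, HISAT and RSEM, so which of these gave the FPKM is not settled. Both name WBcel235. The 48197 lines held 1 broken line and 1418 repeats, which left 46778 genes (46603 in Ensembl annotation release 115, the source of coordinates).

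Values were used as log2(FPKM + 0.1). The 15453 genes whose mean reached 0.5 FPKM entered limma 3.58.1 (R 4.3.3), using eBayes with a trend, no covariates and Benjamini-Hochberg adjustment over all of them. The thresholds were an adjusted p below 0.1 and a log2 fold change beyond 1 in either direction, as in the paper's methods. Fold changes on this scale understate those of low genes such as vit-5. The vit sum, its share of all FPKM and the 15 ratios between vit genes were compared by two-sided exact permutation tests in Python 3.11.15 with scipy 1.17.1. On simulated data of 15453 genes, 84 of 100 genes changed by 1.5 and 91 of 100 changed by 2.5 on the log2 scale passed, with 8 false calls. The changed genes were drawn from all genes, with noise independent between genes. This recovery therefore does not apply to the vit genes, whose SE reached 0.61 for vit-2 and whose libraries numbered 1 stood apart together.

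The fragments per library were estimated from the step between low FPKM values of 9149 genes with 1 transcript. Between 73.8% and 76.8% of low values per library lay within 0.2 of a whole number of fragments, too few to recover counts, so no counting error is given.

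The 6 genes and all gene lists were chosen with earlier results of these data known. Genes named whatever their values are the vit genes, let-607, and regulators and uptake genes (rme-2, dsc-4, unc-62, ceh-60, elt-2, lin-29, mab-3, pqm-1, daf-16). The adult cuticle collagen col-19 was named in the same way. Also named are up to 3 genes per direction with the largest change among those that passed in each list. The nearest tested gene on each side of each vit gene and the 5 genes most alike by Pearson r were named too. Alternatives were pseudocounts of 1 and 0.01, no filter, a mean of at least 5 FPKM, median-of-ratios scaling, rescaling to TPM, a replicate block, eBayes without a trend, and leaving out each library.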

Additional observations from a re-analysis of the deposited data

How the results depend on the processing

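Of the 6 vit genes, 2 passed as lower, and only vit-3 (1 of 6) passed with eBayes without a trend, where vit-4 had an adjusted p of 0.116 from limma. Leaving out 1 library gave 1 to 2 as lower and 0 to 2 as higher, against 0 as higher with all libraries. Without both libraries numbered 1, 1 passed as higher. vit-3 passed in all 15 alternatives, vit-4 in 10 of 15, and a mean of at least 5 FPKM drops vit-5. The log2 fold change of vit-6 was 0.29 without control library 1, 0.01 without let-607 RNAi library 2 and 0.020 without both libraries numbered 1, against -0.22, and leaving out 1 library gave -0.53 to 0.29. With 1 library left out, the ratio of the summed vit FPKM ranged from 0.579 to 1.07 and that of the vit share of all FPKM from 0.599 to 1.11. Both passed 1 only without control library 1. The count of regulators (1) and of uptake genes (0) that passed was the same in all 15 alternatives. Among the marker lists, 1 gene passed, 0 after median-of-ratios scaling (puf-5 at 0.96), 2 without both libraries numbered 1, and 0 to 2 with 1 library left out. The causes of these differences were not tested.

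With a replicate block, 2 vit genes passed as lower and 1 as higher, vit-5 with an adjusted p of 0.0707 from limma. The deviations of same-numbered libraries had correlations of -0.06, 0.0028 and -0.02, so no pairing by number was seen over all genes. These correlations cannot tell whether the numbers pair the libraries for the vit genes, 5 of which were highest in library 1 of both groups. The block changed no other call, but the SE of vit-3 went from 0.35 to 0.15. The adjusted p from limma went from 0.0725 to 0.011 for vit-4 and from 0.268 to 0.0593 for vit-2, whose log2 fold change stayed at 0.98. At the lowest level, that of vit-5, few fragments limit what can be told.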

Other observations

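The rise of library 1 within both groups was looked for across all genes, with a minimum of 1.25-fold over each of the other libraries of its group that was set after the values had been seen. It was met by 198 of 15453 genes tested (1.28%), among them 5 of the 6 vit genes, all but vit-1. For comparison, the other 8 ways to pair 1 library of each group gave between 117 and 186 genes. By the same minimum, library 1 was lowest in both groups for 261 genes, so these libraries did not stand apart in 1 direction only. It was also met by 17 cuticle collagen genes with a col symbol, which is 14.3% of those tested. The collagen gene col-20, named after its values were seen, had 85.2, 59.2 and 65.9 FPKM in libraries labelled let-607 RNAi, against 196, 77.1 and 112 FPKM in the control libraries. col-91, chosen likewise, had 66.1, 33.4 and 49.7 FPKM in libraries labelled let-607 RNAi, against 94.2, 19.4 and 37.1 FPKM in the control libraries. The same library was thus high for yolk genes and for a part of the cuticle collagens in each group.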
